A study of Mus musculus with 13 samples.

Results

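The genes described here are the neutrophil-attracting CXC chemokines Cxcl1, Cxcl2, Cxcl3 and Cxcl5 and their receptor Cxcr2, 5 of the 55353 genes listed in the files. They were chosen by name, with earlier results of these data known. They were read as raw unique molecular identifiers (UMIs, each counting 1 captured mRNA molecule) in cell types of mouse liver. The cell types were defined by marker genes and followed over the days of a cholestatic diet. The 4 ligands share the short ELR motif in front of the first conserved cysteines, by which they bind Cxcr2, a G protein-coupled receptor through which neutrophils crawl towards a chemokine source. Epithelial cells, fibroblasts, endothelial cells and myeloid cells can transcribe the ligands quickly upon NF-kB-activating stimuli such as Il1, Tnf and Il17. In injured bile ducts, neutrophils gather around the ductular epithelium, which makes the source of these ligands a question of liver biology.

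The data comprise 13 libraries of droplet-based 10x Genomics 3′ scRNA-seq from livers of C57BL/6J mice on control chow or on chow with DDC (0.1%). This compound, in full 3,5-diethoxycarbonyl-1,4-dihydrocollidine, is porphyrinogenic and causes cholestasis and a ductular reaction. Libraries are named by day of diet and isolation protocol: steady state is D0 (2 libraries), onset D3 and D5 (4 libraries) and progression D9, D19 and D25 (6 libraries), each day with 1 library of protocol A and 1 of protocol B, and STOP is 1 protocol B library of mice given 18 days of diet and then 7 days of recovery. A second label gives day 18 for D19 B and day 19 for STOP. Protocol A pooled sorted leukocytes, sinusoidal and other endothelial, epithelial, Pdpn-positive and retinoid-storing cells, whereas protocol B pooled live cells of a stellate cell preparation with sorted epithelial cells, T cells and Itgax-positive, Cd64-negative leukocytes, a gate that leaves out macrophages carrying Cd64, so that numbers of cells per type are set by the sort and were not compared. The labels do not say how many mice went into a library or whether both libraries of a day came from the same mice. Each library was counted as 1 sample and onset and progression pool different days, so SDs and p-values rest on the spread between libraries, which may in part be technical.

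Of all barcodes, 95563 held at least 1500 UMIs, between 1541 (D3 B) and 14764 (D9 A) per library, from libraries of 29307190 to 108602421 UMIs in total. Pairs of libraries shared between 1 and 49 cell barcodes, at most 0.519% of the smaller one. A barcode was assigned to a class if it held at least 4 of the 10 markers of a panel, the leading marker among them. No lead was required over another panel that did not reach its own minimum of markers. Where another panel did reach it, the share of detected markers had to be at least 20 percentage points higher. This gave 4654 biliary epithelial cells (BEC, led by Epcam) in 10 libraries with at least 20 cells, 26878 liver sinusoidal endothelial cells (LSEC, Stab2) in 13, 7711 macrophages (C1qa) in 13, 4286 neutrophils (S100a8) in 12 and 1440 fibroblasts (Dcn) in 8. At steady state, BEC and fibroblasts came from D0 A alone. All 10 markers of its own panel were detected in every library of BEC, LSEC and macrophages and at least 9 in those of neutrophils and fibroblasts. The neutrophil panel summed to a median of 76480 CPM (UMIs of a gene per 1000000 UMIs of the class) in neutrophils against 108 CPM in BEC. Since the same markers defined the classes, these values follow from the gate and are no independent check of it. Another 7692 barcodes carried markers of several panels and were kept apart as mixed.

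The 4 ligand genes lie in a chemokine cluster on mouse chromosome 5 (GRCm38.p6), with Ppbp, Pf4 and Cxcl15 between them, Cxcl5 at chr5:90759298-90761625, Cxcl3 at chr5:90786101-90788093, Cxcl1 at chr5:90891245-90893121 and Cxcl2 at chr5:90903899-90905938, within a span of 146.6 kb. Cxcr2 lies at chr1:74153994-74161246. The 120 bases directly in front of the start of Cxcl1, Cxcl2 and Cxcl3 (RefSeq, GRCm38.p6, plus strand) are shown since they share a pair of short runs, set in capitals, which are the NF-kB-type run GGAATTTCC and the TATA-type run ATAAAAGG.

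Cxcl1, chr5:90891125-90891244: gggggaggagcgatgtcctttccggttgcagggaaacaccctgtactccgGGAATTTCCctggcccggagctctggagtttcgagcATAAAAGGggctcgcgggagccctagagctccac

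Cxcl2, chr5:90903779-90903898: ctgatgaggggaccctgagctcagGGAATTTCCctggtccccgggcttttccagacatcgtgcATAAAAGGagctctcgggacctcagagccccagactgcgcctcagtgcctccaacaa

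Cxcl3, chr5:90785981-90786100: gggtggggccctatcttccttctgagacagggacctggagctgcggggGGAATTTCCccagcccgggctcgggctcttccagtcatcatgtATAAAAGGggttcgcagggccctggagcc

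The run GGAATTTCC began 70 bases before the start in Cxcl1, 96 in Cxcl2 and 72 in Cxcl3, and ATAAAAGG began 34, 57 and 29 bases before it. Searched on both strands (GGAAATTCC and CCTTTTAT on the other strand) in the 250 bases before each start, the first run was found in 94 of 32851 RefSeq promoters (0.286%) and the second in 507 (1.54%). Both were found in 3 promoters (0.00913%), which were those of Cxcl1, Cxcl2 and Cxcl3. The runs were chosen after these promoters had been seen, and a match describes letters and not a bound site. Neither run was found in the 250 bases before Cxcr2, and the table used here has no entry for Cxcl5.

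Each gene had its own distribution over cell types. Cxcl5 was a gene of BEC, Cxcl1 of BEC and fibroblasts, Cxcl2 and Cxcl3 were highest in neutrophils, and Cxcr2 was close to restricted to neutrophils. Of 83572 Cxcl5 UMIs in barcodes with at least 1500 UMIs, 84.6% lay in BEC and a further 12.9% in mixed barcodes. BEC also held 50.4% of 75679 Cxcl1 UMIs, with 13.9% in fibroblasts, 13.4% in mixed barcodes, 9.53% in LSEC and 8.14% in macrophages. Of 583295 Cxcl2 UMIs, neutrophils held 41.9%, macrophages 17.6%, mixed barcodes 17.1%, LSEC 7.47% and BEC 6.85%. Cxcl3 had 6004 UMIs in all, 34.9% of them in neutrophils, 19.9% in BEC and 19.4% in mixed barcodes. Neutrophils held 74.8% of 11028 Cxcr2 UMIs and mixed barcodes 14.9%. These shares follow the number of cells sorted as much as the level per cell, which the levels per library show separately.

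**Figure D1:**
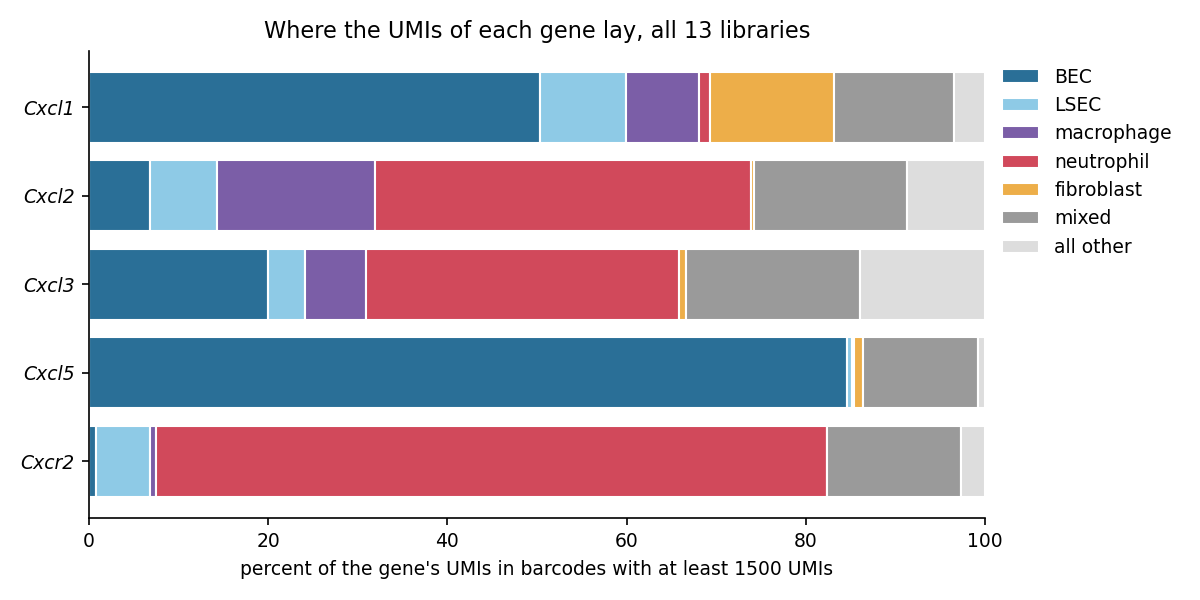
Share of each gene's UMIs (x axis, percent) found in each class of barcodes with at least 1500 UMIs, summed over the 13 libraries, with mixed barcodes in dark grey and all other classes in light grey. Cxcl5 is mostly blue (BEC, 84.6%) and Cxcr2 mostly red (neutrophils, 74.8%), whereas Cxcl2 and Cxcl3 are spread over several classes.

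Levels are given as CPM of the counts summed over the cells of a class in a library. They were compared between classes and libraries for 1 gene at a time, and not between genes. In one edgeR fit of all 5 classes with Benjamini-Hochberg adjustment over 13399 genes, between 54.3% (BEC against fibroblasts) and 75.4% (BEC against neutrophils) of all genes differed between a pair of classes (70.5% for neutrophils against fibroblasts), so that a difference between classes in itself sets no gene apart and the order and its size matter.

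Cxcl5, a chemokine known from epithelial cells, had 855 ± 744 CPM in BEC (SD, n = 10 libraries) and 33.3 ± 31.6 CPM in fibroblasts (n = 8). BEC were higher in 8 of 8 libraries that held both, by 4.37 on the log2 scale (SE 0.58, edgeR adjusted p = 1.48e-08, with 54.3% of all genes called). Fibroblasts in turn were above LSEC at 3.41 ± 4.86 CPM (n = 13) by 3.39 (SE 0.59, edgeR adjusted p = 3.54e-06, 58.1% called), in 6 of 8 libraries, but exceeded the cell-free droplets (10 to 100 UMIs) of their own library in 3 of 8, with medians of 22.9 and 55.4 CPM (5 of 8 against droplets of 10 to 500 UMIs, median 26.3 CPM). Between LSEC, macrophages and neutrophils the neighbouring differences did not pass the test (0.60, SE 0.56, edgeR adjusted p = 0.341, 70.3% called, and 0.05, SE 0.90, adjusted p = 0.968, 63.4% called), and their Cxcl5 was above that of cell-free droplets of the same library in none of 13, 13 and 12 libraries.

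Cxcl1 was highest in fibroblasts and BEC. Fibroblasts had 555 ± 367 CPM (SD, n = 8) and BEC 479 ± 296 CPM (n = 10), and the difference did not pass the test (0.08 on the log2 scale, SE 0.46, edgeR adjusted p = 0.912), fibroblasts being higher in 5 of 8 libraries. These 8 libraries, also used for the other genes, include D19 B. Its 25 barcodes held no Cxcl1 and stood apart in other genes, as given below for fibroblasts by day of diet. BEC exceeded macrophages at 82.7 ± 62.4 CPM (n = 13) in 10 of 10 libraries, by 2.36 (SE 0.41, adjusted p = 1.96e-06, 69% called). The difference between macrophages and neutrophils, which had 67.6 ± 50.1 CPM, did not pass the test (0.19, SE 0.40, adjusted p = 0.703). Neutrophils were above LSEC at 44.1 ± 30.8 CPM in the fit (0.95, SE 0.40, adjusted p = 0.0371, 64% called), but in only 7 of 12 libraries, and this call was lost with total counts in place of TMM scaling (adjusted p = 0.186), without a filter on low counts (0.0817), with at least 3000 UMIs (0.0790) and without D9 B, D19 A or D25 A (0.0749 to 0.114).

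Cxcl2 had a steep order with neutrophils at its head. Neutrophils reached 17979 ± 6886 CPM (SD, n = 12) against 1500 ± 1391 CPM in macrophages (n = 13), and they were higher in 12 of 12 libraries by 3.67 (SE 0.36, edgeR adjusted p = 3.69e-12). Macrophages were above BEC at 482 ± 244 CPM in 9 of 10 libraries by 2.00 (SE 0.38, adjusted p = 8.99e-06), and BEC above LSEC at 235 ± 162 CPM in 8 of 10 libraries by 0.93 (SE 0.35, adjusted p = 0.0146, 73.9% called). Fibroblasts were lowest at 116 ± 117 CPM, below LSEC in 8 of 8 libraries by 1.04 (SE 0.40, adjusted p = 0.0246), a call that was lost when 1 more marker was required for every class (0.82, adjusted p = 0.0609) and without D5 B (0.0591), D9 A (0.0916) or D25 B (0.0962). Outside these classes, monocytes had a median of 426 CPM, dendritic cells 57.4 and T and NK cells 52.2 CPM (13 libraries each).

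Cxcl3, like Cxcl2, was highest in neutrophils. Neutrophils had 144 ± 149 CPM (SD, n = 12) and BEC 13.9 ± 14.2 CPM (n = 10), a difference of 3.72 (SE 0.53, edgeR adjusted p = 3.48e-08, 75.4% called) seen in 9 of 9 libraries. BEC, macrophages at 5.79 ± 6.01 CPM, fibroblasts at 3.36 ± 6.72 CPM and LSEC at 1.22 ± 1.10 CPM followed, with neighbouring differences that did not pass the test (1.07, SE 0.51, adjusted p = 0.0620; 1.45, SE 0.82, adjusted p = 0.122, 62.5% called; and 0.76, SE 0.87, adjusted p = 0.470). BEC did pass against macrophages with total counts in place of TMM (1.51, adjusted p = 0.00656), with 1 more marker required (1.12, 0.0426) and without D0 A, D0 B, D5 B, D9 A or STOP (0.0186 to 0.0429), and macrophages against fibroblasts without D19 A (2.79, 0.0111). Cxcl2 and Cxcl3 are close paralogs: 161 of the 2121 different 31-base runs of Cxcl2 transcripts (GENCODE vM21) also occur in Cxcl3, so that reads from these stretches cannot be told apart and some of the Cxcl3 counts may stem from Cxcl2, a share that was not bounded. Of all runs, 5.46% in Cxcl3 and 7.70% in Cxcr2 occur in other genes (1460 and 707 of them), which bears on low values of both, 0.871% in Cxcl5 and none in Cxcl1.

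Cxcr2, the receptor, had 604 ± 299 CPM in neutrophils (SD, n = 12) and 3.35 ± 3.46 CPM in LSEC (n = 13), the class next in order. The difference was 8.46 (SE 0.39, edgeR adjusted p = 7.91e-23) and was seen in 12 of 12 libraries. LSEC were above BEC at 1.17 ± 1.17 CPM by 1.59 (SE 0.42, adjusted p = 0.000916) in 9 of 10 libraries. Scaling neutrophil Cxcr2 by the neutrophil panel found in LSEC barcodes gave a median of 2.76 CPM against 1.75 CPM measured, and the measured value was the higher one in 2 of 12 libraries. LSEC Cxcr2 was above droplets of 10 to 100 UMIs in 3 of 13 libraries and above those of 10 to 500 UMIs in 5 of 13, and the part of neutrophil mRNA in it was not tested. Macrophages and fibroblasts had 0.675 and 0.419 CPM.

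**Figure D2:**
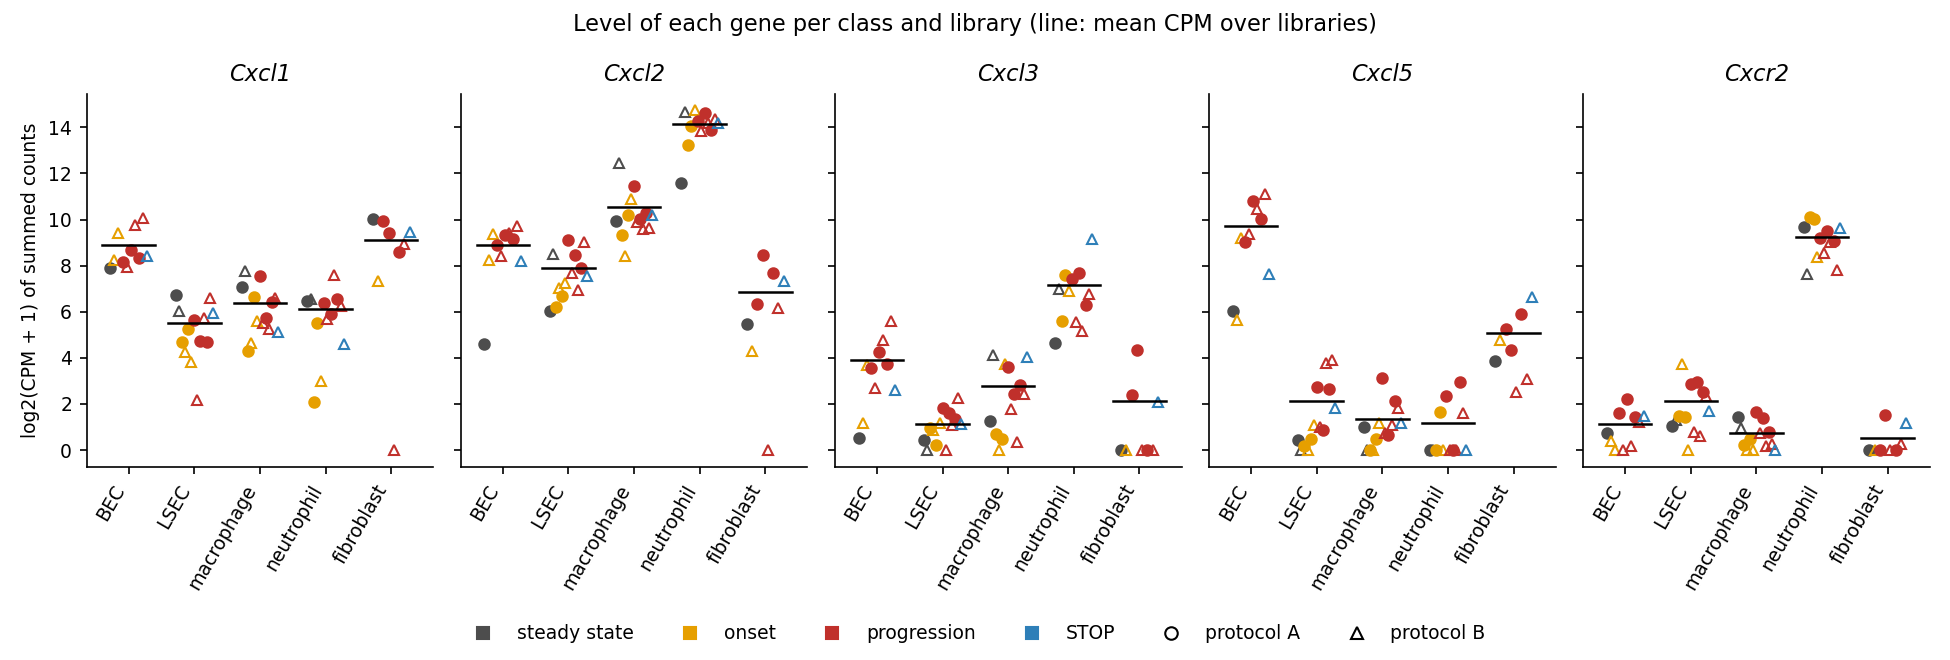
Level of each gene (y axis, log2 of CPM plus 1, counts summed over the cells of a class) in each library, with 1 point per library, filled circles for protocol A, open triangles for protocol B, colours for stage and a black line at the mean CPM. Cxcr2 stands out in neutrophils and Cxcl5 in BEC, Cxcl1 is highest in BEC and fibroblasts, and 1 fibroblast library (D19 B) is at 0 for Cxcl1 and Cxcl2.

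Droplets without a cell hold free mRNA, which also enters droplets with a cell. Barcodes with 10 to 100 UMIs had a median of 296 CPM of Cxcl2 over the 13 libraries (116 in D3 B to 1302 in D9 A), 48.8 CPM of Cxcl1, 13.9 of Cxcl5, 4.63 of Cxcr2 and 2.88 of Cxcl3. Neutrophils lay above these droplets of their own library for Cxcl2, Cxcl3 and Cxcr2 in 12 of 12 libraries, BEC for Cxcl1 and Cxcl5 in 10 of 10, macrophages for Cxcl2 in 12 of 13 and fibroblasts for Cxcl1 in 7 of 8. By contrast, Cxcl2 in LSEC was above them in 2 of 13 libraries and in fibroblasts in 0 of 8, and Cxcl1 in LSEC in 4 of 13. Since free mRNA is only part of the UMIs of a cell, lying below these droplets does not decide whether a class transcribes a gene. The part of free mRNA in these values was not tested. Neutrophil Cxcl2 was also scaled by the neutrophil panel found in each class. The measured level was above this in LSEC in 12 of 12 libraries (medians 197 and 106 CPM) and in fibroblasts in 6 of 8 (74.7 and 15.9 CPM). Cxcl2 in BEC was above the droplets of 10 to 100 UMIs in 6 of 10 libraries, all of protocol B. It was below them in D0 A, D9 A, D19 A and D25 A, in D0 A with 23.5 against 138 CPM. T and NK cells, which are not known as a source, had 4.15 CPM of Cxcl1 and 52.2 CPM of Cxcl2 as a median and thus lay far below the droplets without a cell, and D19 A, with 991 CPM, was their highest Cxcl2 value.

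Within a class, the ligands were unevenly shared between cells. The 10% of BEC with the most UMIs of a gene held 56.6% to 85.6% of the Cxcl1, 72.4% to 100% of the Cxcl2 and 59.7% to 100% of the Cxcl5 UMIs of a library (10 libraries). In neutrophils, the corresponding 10% held 21.0% to 43.5% of Cxcl2 (12 libraries). Cxcl2 was thus spread over more of the neutrophils than of the BEC. In D0 A, a single cell held 309 of the 582 Cxcl5 UMIs of 658 BEC. After thinning every cell to 1500 UMIs, Cxcl2 was detected in a median of 93.3% of neutrophils (67.4% to 100%), against 2.13% of T and NK cells, and Cxcr2 in 55.4% (33.0% to 70.1%) against 0%. In BEC, the shares were 20.7% for Cxcl1, 19.8% for Cxcl2 and 28.4% for Cxcl5, against 0.461%, 2.13% and 0% of T and NK cells. Without thinning they were 45.6%, 40.8% and 52.2% in BEC, whose libraries had median depths of 10146 to 25510 UMIs against 2199 to 7748 in T and NK cells.

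Cxcl2 was detected in neutrophils with and without a Cxcr2 UMI alike. After thinning every cell to 1500 UMIs, Cxcl2 was detected in 89.7% ± 8.42 of neutrophils with a Cxcr2 UMI (SD, n = 11 libraries). In those without, the share was 91.3% ± 8.90. It was the higher one in Cxcr2-positive cells in 3 of 11 libraries. Since most neutrophils of every library held Cxcl2, an overlap was given in advance. Cells without a Cxcr2 UMI may still express the receptor.

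BEC that carried a UMI of Dmbt1, a secreted scavenger glycoprotein, or of Muc4, a membrane mucin, had lower levels of the ligands in most libraries, although which cells show such a UMI also depends on their depth. In 9 libraries with at least 20 cells on both sides, Cxcl1 was at 76.9 ± 43.5 CPM in Dmbt1- or Muc4-positive and 622 ± 363 CPM in negative BEC (SD, n = 9) and lower in 9 of 9 libraries. Cxcl2 was at 119 ± 104 against 609 ± 329 CPM and likewise lower in 9 of 9. Cxcl5 was at 261 ± 151 against 950 ± 926 CPM and lower in 8 of 9, as was Cxcl3 in 8 of 9 libraries. The exception for both was D0 A, the only library of steady state. There Cxcl5 was at 399 CPM in positive and 10.2 CPM in negative BEC, with 309 of the 503 UMIs of positive BEC in 1 cell. Cxcl3 was at 1.59 and 0.258 CPM in D0 A, from 2 UMIs on each side. Among macrophages, those with a UMI of Clec4f, a lectin of Kupffer cells, had 941 ± 698 CPM of Cxcl2 against 2018 ± 1585 CPM in those without (n = 12) and were lower in 11 of 12 libraries, whereas Cxcl1 was at 81.8 ± 73.4 against 86.3 ± 57.9 CPM and lower in 7 of 12 libraries.

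In BEC, the question was whether the ligands differ between steady state and DDC diet. Cxcl2 rose, and of the 5 genes it was the only one called, while 2% of all 15169 genes tested in BEC were called. Cxcl2 stood at 23.5 CPM in D0 A (95% Poisson interval 20.5 to 26.9, from 212 UMIs of 658 cells). It stood at 304 CPM in D3 B and 661 CPM in D5 B, the 2 onset libraries with enough BEC. In progression, it stood at 471 (D9 A), 341 (D9 B), 638 (D19 A), 683 (D19 B), 567 (D25 A) and 847 CPM (D25 B). All 8 DDC libraries thus lay above the 1 library of steady state, and the lowest of them was the earliest. In D19 A, 1 cell held 225 of 527 Cxcl2 UMIs, and in D3 B 1 cell held 246 of 974. The other cells came to 366 CPM in D19 A and 227 CPM in D3 B, still above D0 A. The difference was 4.60 on the log2 scale (SE 0.72, edgeR adjusted p = 0.0244), and the adjusted p was 0.0514 without D19 B and 0.0532 without D25 A. With D0 A as the sole steady-state library, its own spread is assumed to be that of the other libraries, and exact permutation of the labels within protocol cannot go below p = 0.25.

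Several other measures moved along with this. The summed level of the macrophage panel in BEC barcodes was 78.1 CPM in D0 A and 212 to 1485 CPM in the DDC libraries, with all 10 of its markers detected in every library. Scaling macrophage Cxcl2 by it gave 9.93 to 95.7 CPM in the DDC libraries, below the level measured in BEC in 10 of 10 libraries. The neutrophil panel in BEC also moved, with 33.4 CPM in D0 A and between 30.9 (D9 B) and 516 CPM (D19 A) on diet, and gave 0.804 CPM of Cxcl2 in D0 A and at most 180 CPM (D19 A, median 36.2 CPM) in the same way, below the measured level in 9 of 9 libraries. The free Cxcl2 of the droplets with 10 to 500 UMIs also differed, with 95.3 CPM in D0 A, the lowest library, and 1096 CPM in D9 A, the highest. In D0 A, D9 A and D19 A the free level was above that measured in BEC. Immediate early genes, which tissue digestion is known to raise, moved the other way and summed to 24266 CPM in D0 A against 8981 to 14689 CPM in DDC. Their part in the result was not tested beyond these values.

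Cxcl5 and Cxcl3 were higher in most DDC libraries but did not pass the test. Cxcl5 was at 64.6 CPM in D0 A, at 48.4 in D3 B and 594 in D5 B, and in progression at 522 (D9 A), 661 (D9 B), 1794 (D19 A), 1418 (D19 B), 1046 (D25 A) and 2205 CPM (D25 B). The 7 DDC libraries other than D3 B lay above both D0 A and D3 B. The order of these last rests on 1 cell that held 309 of the 582 Cxcl5 UMIs of D0 A, whose other cells came to 30.3 CPM. The difference to D0 was 3.24 (SE 1.35, edgeR adjusted p = 0.193). Within the protocol A libraries alone it was 4.23 with adjusted p = 0.0301, but with 11 BEC in D3 A and 3 in D5 A this sets progression against D0 A and lacks both onset days. Cxcl3 rested on few molecules, 4 UMIs or 0.444 CPM in D0 A and 4 UMIs or 1.25 CPM in D3 B, and reached 12.0 CPM in D5 B and 5.43 (D9 B) to 47.8 CPM (D25 B) in progression. Its difference to D0 was 4.09 (SE 1.65, adjusted p = 0.183) and 4.97 (adjusted p = 0.0156) within protocol A, again for progression alone.

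Cxcl1 was already at 239 CPM in BEC of D0 A, and its difference to DDC did not pass the test. The DDC libraries were at 307 (D3 B), 689 (D5 B), 281 (D9 A), 248 (D9 B), 408 (D19 A), 871 (D19 B), 326 (D25 A) and 1080 CPM (D25 B). All 8 lay above D0 A, D9 B only just, and the 3 highest were of protocol B. The order of D3 B and D9 B against D0 A rests on single cells. In D3 B, 1 cell held 309 of 982 Cxcl1 UMIs. With the top cell of each library set aside, the other cells came to 210 CPM in D3 B, 222 in D9 B and 233 CPM in D0 A. The log2 difference was 0.44 (SE 0.74, edgeR adjusted p = 0.765). The mix of BEC differed, with 69 cells with a Dmbt1 or Muc4 UMI beside 589 without in D0 A. These numbers were 36 and 348 in D5 B, 398 and 411 in D9 A and 479 and 681 in D25 A. Cxcl1 of BEC without such a UMI was at 256 CPM in D0 A and 294 (D9 B) to 1337 CPM (D25 B) on diet. With such a UMI, it was at 133 CPM in D0 A and 0 (D3 B) to 116 CPM (D25 B) on diet. D19 A is not among these libraries. The part of this mix in the ligand levels was not tested. The means over the DDC libraries were 526 ± 314 CPM for Cxcl1 and 564 ± 183 CPM for Cxcl2 (SD, n = 8).

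Between onset and progression, no gene was called in BEC by edgeR (0%, with 897 at an unadjusted p under 0.05 and 23 called by DESeq2), none of the 5 among them. Cxcl5 was at a mean of 321 CPM in the 2 onset libraries and 1275 ± 656 CPM in progression (SD, n = 6), a log2 difference of 2.06 (SE 0.91, edgeR adjusted p = 0.841). The corresponding differences were 1.81 (SE 0.86) for Cxcl3, 0.49 (SE 0.54) for Cxcl1 and 0.30 (SE 0.41) for Cxcl2, and the last one turned to -0.21 without D3 B.

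**Figure D3:**
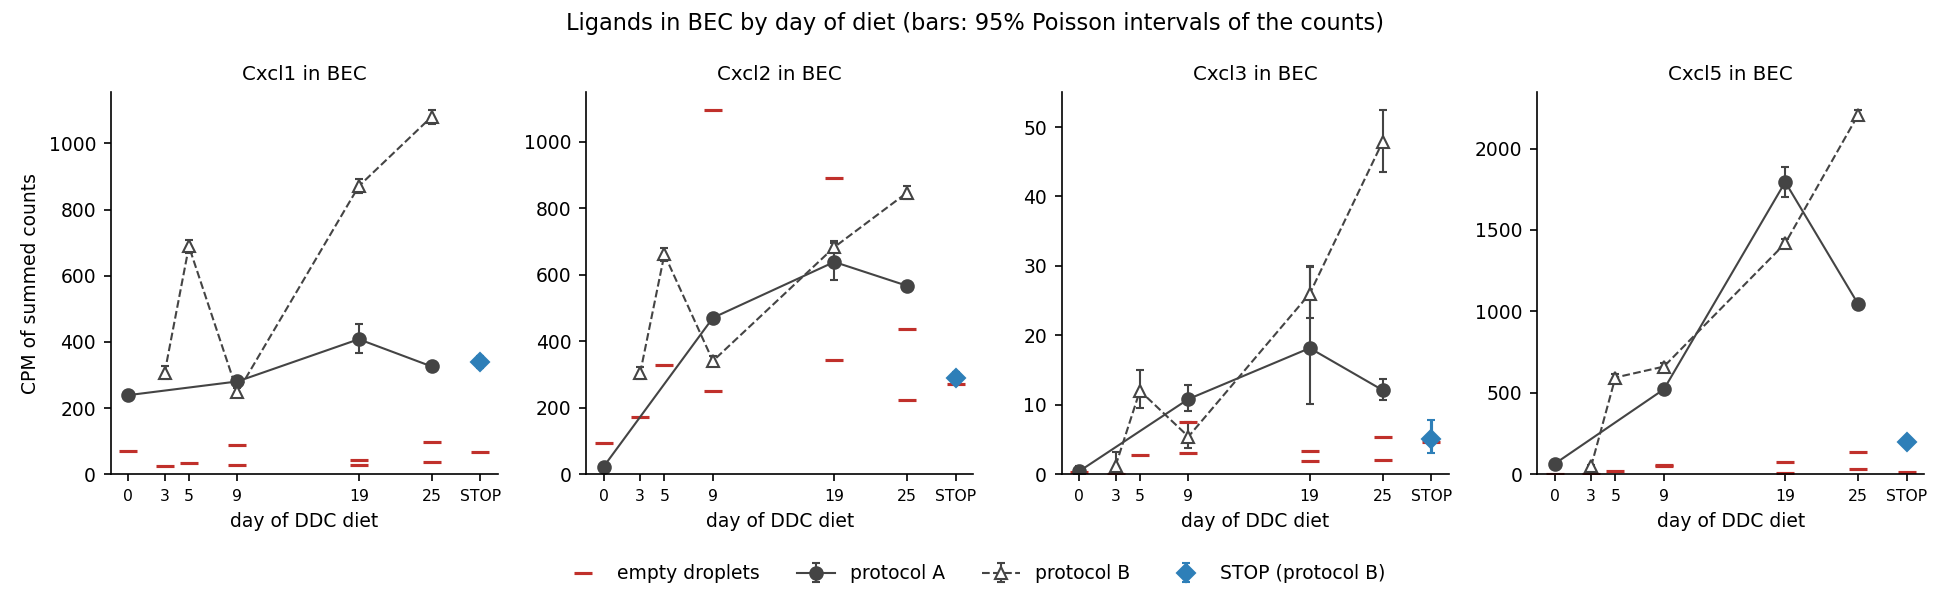
Levels of the 4 ligands in BEC (y axes, CPM of summed counts, from 0) by day of DDC diet, with circles for protocol A, triangles for protocol B, a blue diamond for STOP, 95% Poisson intervals of the counts as bars and red dashes for droplets with 10 to 500 UMIs of the same library. Cxcl2 lies at 23.5 CPM at D0 and between 304 and 847 CPM on diet, and Cxcl5 is highest at D19 and D25.

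After 7 days of recovery, all 4 ligands were lower in BEC than in D19 B, the library of the same protocol with the nearest length of diet. STOP BEC had 196 CPM of Cxcl5, and D19 B was 7.23-fold higher (95% interval of the counts 6.73 to 7.79). Cxcl3 was 5.15-fold higher in D19 B (3.25 to 8.60), Cxcl1 2.57-fold (2.42 to 2.73) and Cxcl2 2.36-fold (2.21 to 2.52). At 289 CPM (95% Poisson interval 273 to 307), Cxcl2 in STOP was below every DDC library, but D3 B at 304 CPM lay within this interval. With the top cell of each library set aside, STOP came to 251 CPM and D3 B to 227 CPM, the reverse order. Cxcl2 in STOP was still above the 23.5 CPM of D0 A. The other 3 lay within the range on diet, Cxcl5 between D3 B and D9 A, Cxcl1 at 339 CPM above D3 B, D9 A, D9 B and D25 A, and Cxcl3 at 5.05 CPM above D3 B. STOP is a single library, so these differences have no replicate check, and the intervals cover counting error only. In BEC barcodes, the macrophage panel was at 1245 CPM in D19 B and 505 CPM in STOP, and the neutrophil panel at 205 and 42.7 CPM. In droplets of 10 to 500 UMIs, free Cxcl5 (75.5 and 12.9 CPM) and Cxcl2 (344 and 270 CPM) were lower in STOP. Free Cxcl1 (44.3 and 68.8 CPM) and Cxcl3 (1.97 and 4.59 CPM) were higher in STOP. The part of these measures was not tested.

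Neutrophils were asked the same question, and none of the 4 genes that could be fitted was called between D0 and DDC, with 0.327% of 7035 genes called. Cxcl2 was at 3070 CPM in D0 A and 25882 CPM in D0 B, so that the steady-state libraries lay near both ends of the range. In the DDC libraries it was between 9655 (D3 A) and 27190 CPM (D5 B) with a mean of 18654 CPM. The difference was 0.45 (SE 0.57, edgeR adjusted p = 0.800), and it was -0.64 without D0 A. Cxcr2 was at 828 CPM in D0 A and 199 CPM in D0 B and at 223 (D25 B) to 1096 CPM (D3 A) on diet, a difference of 0.31 (SE 0.33, adjusted p = 0.757). Its level followed the protocol: on each of the 5 days with neutrophils of both protocols, protocol A was the higher one, as at D5 with 1036 against 330 CPM, and the protocol was a term of the fit.

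Cxcl3 in neutrophils was at 24.0 CPM in D0 A, 127 CPM in D0 B and 34.4 (D19 B) to 202 CPM (D19 A) on diet (0.38, SE 0.77, edgeR adjusted p = 0.885). Cxcl1 was at 88.7 and 94.1 CPM in D0 and at 3.24 (D3 A) to 190 CPM (D19 B) on diet (-1.16, SE 0.54, adjusted p = 0.402). Between onset and progression none of the 4 genes that could be fitted was called either (0.0711% of all genes), the largest difference being 2.03 for Cxcl1 (SE 0.61, adjusted p = 0.448) and that of Cxcr2 -0.55 (SE 0.30, adjusted p = 0.687). Cxcl5 was too low in neutrophils to be fitted (mean 0 in D0 and 1.67 CPM on diet, two-sided exact permutation within protocol, p = 0.6). In STOP neutrophils, Cxcl2 was at 18906 CPM, 1.01-fold that of D19 B (0.987 to 1.04), while Cxcl3 at 576 CPM was 16.7-fold that of D19 B (10.6 to 28.1), or 35.2-fold with at least 3000 UMIs, and Cxcr2 1.53-fold (1.33 to 1.77), without a replicate. Cxcl1 was at 23.6 CPM in STOP and 8.04-fold higher in D19 B (4.95 to 13.7). STOP lay within the protocol B range of Cxcl1 on diet, 7.03 to 190 CPM. D19 B was the highest library on diet for Cxcl1 and the lowest for Cxcl3, and STOP had the highest Cxcl3 of all 12 neutrophil libraries. The monocyte panel in neutrophil barcodes was at 1809 CPM in D19 B, its highest value, and 277 CPM in STOP. Its part in these ratios was not tested.

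**Figure D4:**
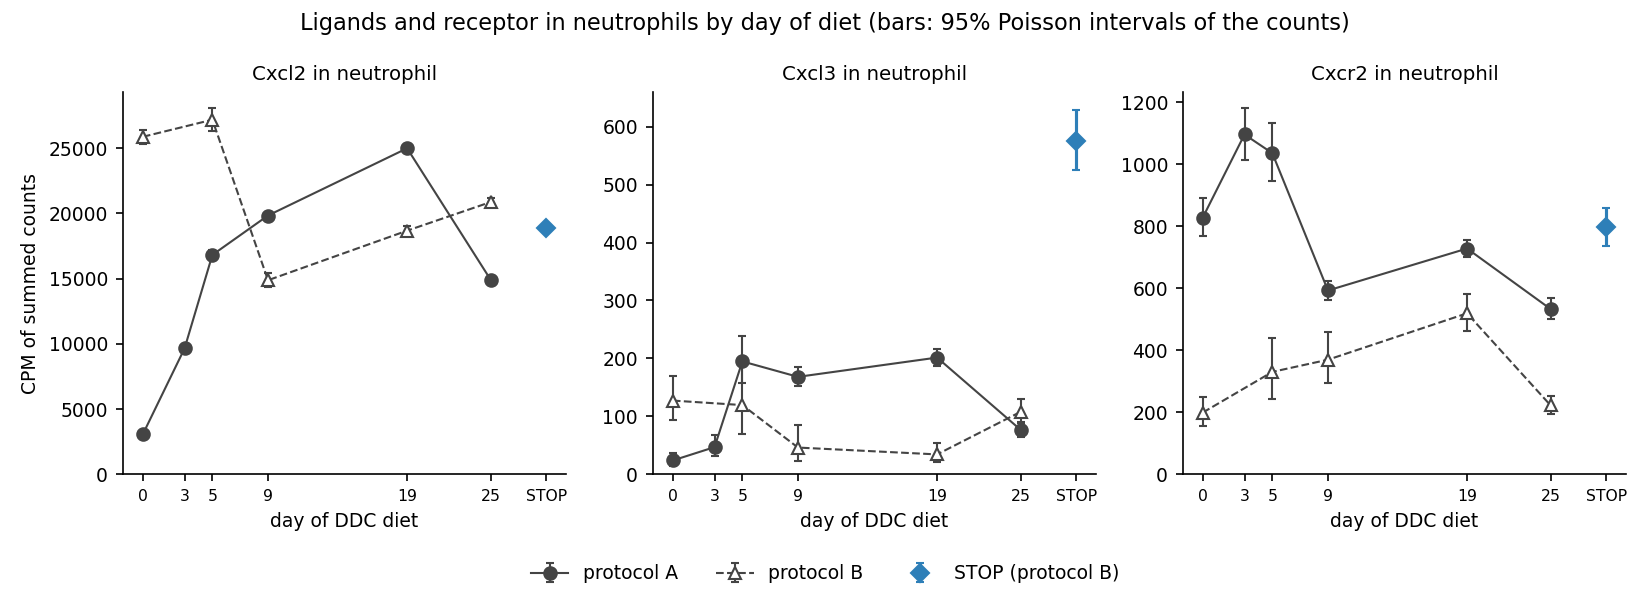
Levels in neutrophils (y axes, CPM of summed counts, from 0) by day of DDC diet, with symbols for protocol and STOP as the legend gives them and 95% Poisson intervals of the counts as bars. Cxcr2 of protocol A lies above protocol B on every day with both, and Cxcl2 is at 3070 CPM in D0 A and at least 9655 CPM in the other libraries.

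In macrophages, none of the 4 genes that could be fitted was called, with 4.1% of 11551 genes called between D0 and DDC. Cxcl2 was at 976 CPM in D0 A and 5643 CPM in D0 B. On diet it was at 634 (D3 A), 339 (D3 B), 1167 (D5 A), 1920 (D5 B), 2809 (D9 A), 965 (D9 B), 1035 (D19 A), 779 (D19 B), 1254 (D25 A) and 801 CPM (D25 B). D0 B was thus higher than every other library and D0 A lay within the range of the diet. The difference of -1.59 (SE 0.68, edgeR adjusted p = 0.206) turned to 0.88 (adjusted p = 0.527) without D0 B and became -2.67 (adjusted p = 0.0426) without D0 A, so that its direction rests on 1 library. Protocol B gated its sorted leukocytes against Cd64, and the part of this in the 194 macrophages of D0 B was not tested. Cxcl1 was at 133 and 215 CPM in D0 and at 18.9 (D3 A) to 187 CPM (D9 A) on diet, below both D0 libraries in 9 of 10 (-1.53, SE 0.55, adjusted p = 0.137). Immediate early genes summed to 12150 and 14945 CPM in D0 and 4474 to 6567 CPM on diet in the same macrophages, and their part in these values was not tested.

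Cxcl3 in macrophages was at 1.37 and 16.5 CPM in D0 and at 0 to 12.3 CPM on diet (-0.63, SE 1.31, edgeR adjusted p = 0.844), and Cxcr2, which was too low to be fitted, was at 1.34 CPM as a mean in D0 and 0.609 CPM on diet (two-sided exact permutation within protocol, p = 0.139). Between onset and progression, none of the 4 fitted genes was called in macrophages (0.182% of all genes), with 0.31 for Cxcl2 (SE 0.59) and 0.85 for Cxcl1 (SE 0.50). In STOP, macrophage Cxcl2 at 1180 CPM was 1.51-fold that of D19 B (1.45 to 1.59) and Cxcl1 0.907-fold (0.698 to 1.17). Macrophage Cxcl3 was at 15.5 CPM in STOP (37 UMIs) and at 0.289 CPM in D19 B (2 UMIs).

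In LSEC, which line the sinusoids, none of the 5 was called between D0 and DDC (0.851% of 13871 genes) or between onset and progression (0.0288%). Cxcl1 was at 105 CPM in D0 A and 64.0 CPM in D0 B and at 3.45 (D9 B) to 94.7 CPM (D25 B) on diet, below both D0 libraries in 9 of 10 (-1.31, SE 0.62, edgeR adjusted p = 0.350). Immediate early genes summed to 21208 and 9923 CPM in LSEC of D0 and 4679 to 11002 CPM on diet, and their part in this was not tested. Cxcl2 was at 64.3 and 364 CPM in D0 and 72.6 (D3 A) to 549 CPM (D9 A) on diet (0.04, SE 0.61, adjusted p = 0.988). Cxcl2 was at 72.6, 129, 103 and 150 CPM in the onset libraries and at 121 (D19 B) to 549 CPM in progression (1.59, SE 0.52, adjusted p = 0.320). LSEC Cxcl5 had a difference of 3.84 between onset and progression (SE 0.84, adjusted p = 0.183; DESeq2 3.93, adjusted p = 0.000673) but its levels, 0 to 1.10 CPM in onset and 0.813 to 14.1 CPM in progression, were above the droplets without a cell in no library. Free Cxcl5 in droplets of 10 to 500 UMIs ranged from 0 (D0 B) to 140 CPM (D25 B). In STOP, LSEC had 1.56-fold the Cxcl2 of D19 B (1.43 to 1.70), 1.16-fold the Cxcl1 (1.01 to 1.33) and 0.200-fold the Cxcl5 (0.129 to 0.306).

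Fibroblasts of D0 A had 1037 CPM of Cxcl1, which was higher than in any later library. Cxcl1 was at 158 CPM in D5 B, the only onset library, and at 965 (D9 A), 691 (D19 A), 0 (D19 B), 382 (D25 A) and 497 CPM (D25 B) in progression. All 6 DDC libraries thus lay below D0 A, D9 A only slightly and D19 B, at 0, the farthest. The difference was -0.83 (SE 1.52, edgeR adjusted p = 0.995), and no gene at all was called in fibroblasts by edgeR (0%, 392 genes at an unadjusted p under 0.05, 2 called by DESeq2), where 1% of the changed genes were found in simulated data. Immediate early genes in fibroblasts were also highest in D0 A (23108 CPM) and lowest in D19 B (5331 CPM), with 15669 CPM in D9 A and 17232 CPM in D19 A, and their part was not tested. STOP fibroblasts had 713 CPM of Cxcl1. The 0 of D19 B came from 25 barcodes whose levels of other genes stood apart. Msln, a mesothelial marker looked up after the values were seen, was at 2365 CPM against 10.4 to 228 CPM in the other 7 libraries. Lum, a collagen-binding proteoglycan of fibroblasts, was at 253 against 969 to 2193 CPM, and Ptprc, a leukocyte marker, at 216 against 5.32 to 71.6 CPM. The BEC panel was at 1121 CPM in D19 B, its highest value in fibroblast barcodes, and the fibroblast panel at 16789 CPM, its lowest. Without D25 B, where D19 B alone stands for protocol B in progression, the difference of Cxcl1 turned to 4.53 (adjusted p = 0.617).

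Cxcl2 in fibroblasts was at 43.0 CPM in D0 A and 0 to 349 CPM on diet, and Cxcl5 at 13.8 CPM in D0 A, 4.69 to 59.5 CPM on diet and 98.0 CPM in STOP, its highest value (differences to D0 of 1.77, SE 1.33, and 2.55, SE 0.83, edgeR adjusted p = 0.995 for both). Cxcl3 was detected in 3 of 8 fibroblast libraries (45 UMIs), too few for an estimate. Between onset and progression 0% of genes were called by edgeR in fibroblasts (340 at an unadjusted p under 0.05, 2 by DESeq2).

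**Figure D5:**
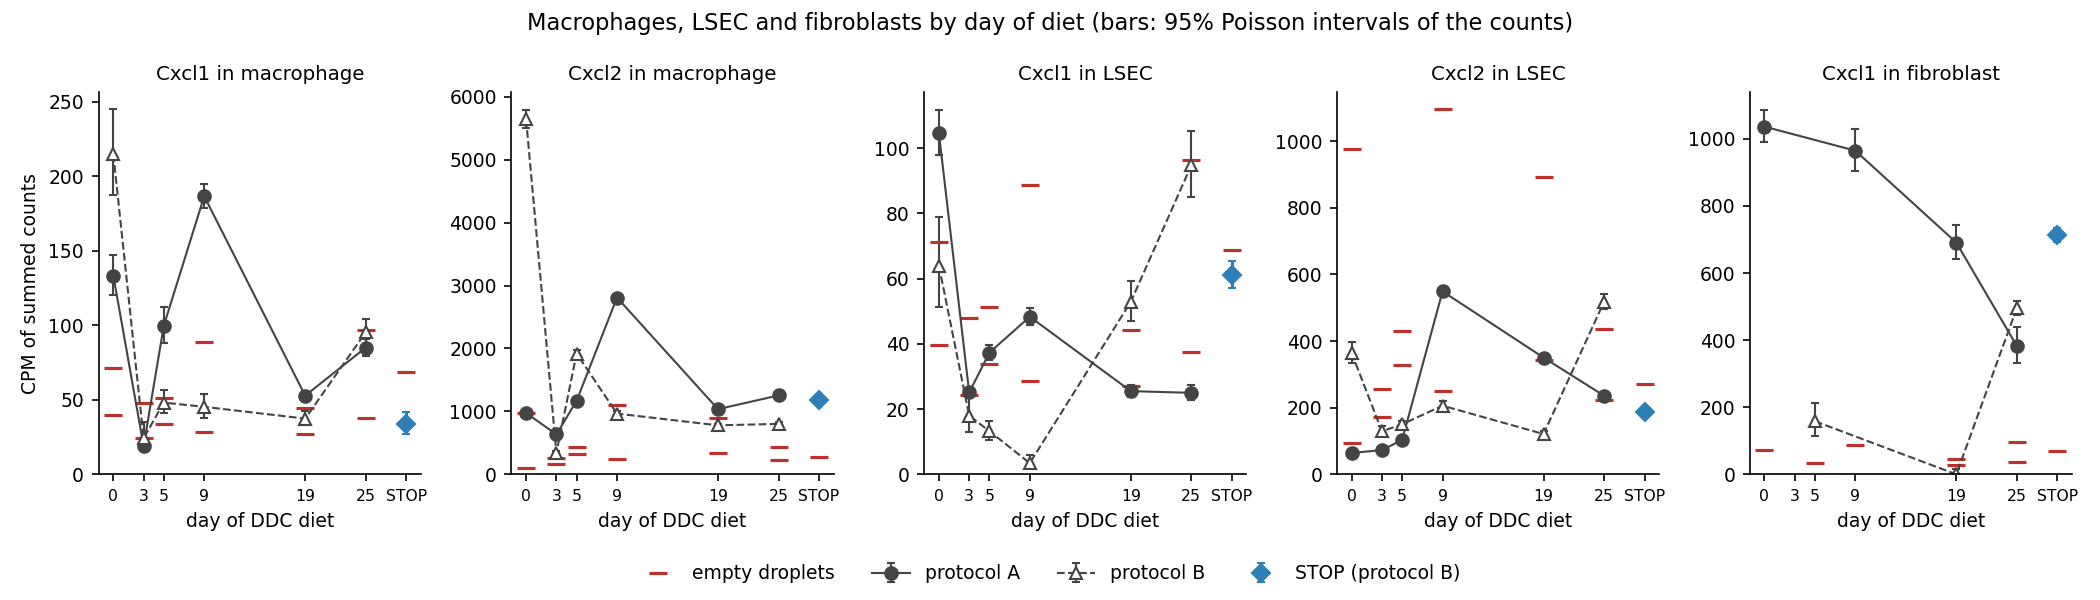
Cxcl1 and Cxcl2 in macrophages and LSEC and Cxcl1 in fibroblasts (y axes, CPM of summed counts, from 0) by day of DDC diet, with symbols as the legend gives them, 95% Poisson intervals as bars and red dashes for droplets with 10 to 500 UMIs of the same library. D0 B macrophages stand out with 5643 CPM of Cxcl2, and the LSEC values lie among those of the droplets without a cell.

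Genes of the pathway around these ligands were taken from 6 lists with 51 genes, upstream cytokines (Il1b, Tnf, Il17a and others), their receptors, NF-kB feedback genes, other chemoattractants with their receptors, leukocyte adhesion molecules and immediate early genes. In BEC, 3 of the 44 genes tested rose between D0 and DDC and 1 fell, beside 2% of all genes called. Vcam1, an adhesion molecule for integrin-bearing leukocytes, was at 74.4 CPM in D0 A and 594 ± 179 CPM on diet (SD, n = 8; 3.01, SE 0.58, edgeR adjusted p = 0.0364). The chemokine receptor Ccr1 was at 1.55 and 18.8 ± 8.22 CPM (2.72, SE 0.46, adjusted p = 0.0276) and the chemokine Pf4 at 8.10 CPM in D0 A and a mean of 80.6 CPM on diet (2.49, SE 0.44, adjusted p = 0.0299), both known from myeloid cells and platelets, at levels that moved with the macrophage panel in BEC given above. Nfkbiz, an inducible regulator of NF-kB targets, fell by 1.73 (SE 0.29, adjusted p = 0.0279), from 784 CPM in D0 A to 279 ± 69.6 CPM. These 4 calls rest on D0 A as the sole steady-state library, and each was lost without D19 B and without 1 to 3 other libraries in turn, Ccr1 in 2 of 8 fits, Nfkbiz and Pf4 in 3 and Vcam1 in 4 (highest adjusted p = 0.0872), while the directions stayed.

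By list, the upstream cytokines had a median log2 difference of 2.16 in BEC with 0 of 6 called, and all 6 were positive. Among them is Il1b, which was at 246 CPM in BEC against 12194 CPM in neutrophils and 1120 CPM in macrophages, and the macrophage panel in BEC stood at 78.1 CPM in D0 A and 212 to 1485 CPM on diet. Its part in these list values was not tested. The other chemoattractants and their receptors had 2.22 with 2 of 9 called, adhesion molecules 1.65 with 1 of 9, cytokine receptors 0.33 with 0 of 6 and NF-kB feedback genes -0.47 with 1 of 6, while the median over all genes was -0.00197. The immediate early genes had -1.30, with 0 of 8 called and none positive.

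In LSEC, 2 of 47 genes rose and none fell (0.851% of all genes called), both of them receptors of cytokines that induce these chemokines: Il17ra, the shared Il17 receptor chain, from 16.3 to 59.6 ± 16.0 CPM (SD, n = 10; 1.92, SE 0.27, edgeR adjusted p = 0.00836) and Il1r1, the Il1 receptor, from 52.2 to 105 ± 26.5 CPM (1.23, SE 0.25, adjusted p = 0.0480). With a library left out, Il17ra lost its call without D0 A (adjusted p = 0.0878), and Il1r1 kept it in 2 of 12 fits. The 6 cytokine receptors had a median of 0.73 in LSEC against 0.02 for all genes. The macrophage panel in LSEC barcodes was at 361 (D0 A) and 204 CPM (D0 B) and at 357 (D3 A) to 1559 CPM (D25 B) on diet. Its part in these LSEC values was not tested. In macrophages, 1 of 42 rose and 9 fell (4.1% of all genes called). The integrin chain Itgb2 rose by 0.83 on the log2 scale (SE 0.19, adjusted p = 0.0245). Of the 9 that fell, 6 were immediate early genes, and the largest differences were those of the heat shock genes Hspa1b (-3.37, SE 0.84, adjusted p = 0.0397) and Hspa1a (-3.06, SE 0.62, adjusted p = 0.0172), of Cxcl12 (-2.86, SE 0.65, adjusted p = 0.0271), the ligand of Cxcr4, and of the chemokine Ccl4 (-2.53, SE 0.60, adjusted p = 0.0329). Macrophage Cxcl12 was at 60.8 CPM in D0 A, 0.967 CPM in D0 B and 3.21 ± 3.07 CPM on diet (n = 10), so that D0 A alone was high, and the difference turned to 0.80 (adjusted p = 0.867) without D0 A. Cxcl12 is known from fibroblasts, where it had a mean of 1197 CPM, and the fibroblast panel summed to 946 CPM in macrophage barcodes of D0 A, 3.87 CPM in D0 B and at most 149 CPM on diet. The part of fibroblast mRNA in this fall was not tested. With a library left out, the calls held in 10 of 12 fits for Itgb2 and Hspa1a, 6 for Ccl4 (-0.30 without D0 B) and 3 for Hspa1b.

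In neutrophils, 1 of 40 genes rose and 1 fell (0.327% of all genes called). The gene that rose was the adhesion molecule Icam1, which went from 41.1 to 255 ± 147 CPM (SD, n = 9; 2.15, SE 0.40, edgeR adjusted p = 0.0293). Cxcl12 fell by 3.60 (SE 0.58, adjusted p = 0.0133), from 73.2 to 6.13 ± 5.46 CPM. The fibroblast panel in neutrophil barcodes moved with it, from 442 (D0 A) and 313 CPM (D0 B) to 7.03 to 196 CPM on diet, and its part in the fall was not tested. With a library left out, Icam1 kept its call in 7 of 11 fits and Cxcl12 in 10, being lost without D0 B (adjusted p = 0.0807). In fibroblasts, 0 of 37 were called, and between onset and progression no gene of the lists was called in any of the 5 classes.

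The genes whose pattern was most like that of each member were found by Pearson's r of log2(CPM + 10) over 106 sums, each of 1 class in 1 library, among 10037 genes. These sums share libraries and classes, and r is a description. Cxcr2 went with Cstdc4 (0.98), Mrgpra2b (0.97) and Stfa2l1 (0.97). Cxcl5 went with Gabrp (0.94), S100a14 and Mmp7 (0.93 each), Cxcl2 with the complement receptor C5ar1 (0.88), Clec4d (0.88) and the cystine transporter Slc7a11 (0.87), and Cxcl3 with Acod1 (0.83), Hcar2 (0.83) and Slc7a11 (0.82). Cxcl1 had the least marked companions, Bmpr1a (0.79), Cp (0.78) and Trim47 (0.77). Among the members, r was highest for Cxcl3 with Cxcr2 (0.81) and Cxcl2 with Cxcl3 (0.78) and lowest for Cxcl5 with Cxcr2 (-0.13).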

How the data were processed

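Raw UMI counts per gene and barcode of 13 libraries were used as deposited; the authors made these counts with kallisto against GRCm38 per the labels, neither normalized nor filtered for cells (version and annotation are not given in the sources used here). The libraries held 29307190 to 108602421 UMIs, with 65.0% to 93.4% of them in barcodes of at least 1500 UMIs. The 5 genes, the marker panels and the gene lists were chosen with earlier results of these data known, and the number of markers required for a class was set after marker counts had been looked at. At the cut itself lay 1216 of 7711 macrophages, and between 88 and 227 barcodes of each of the other 4 classes. Doublets were not called, and barcodes in which several panels reached their minimum without a lead of 20 percentage points were kept as mixed.

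Counts were summed per library and class over at least 20 cells and tested with edgeR 4.0.16 (R 4.3.3) by its quasi-likelihood test with TMM, filterByExpr, isolation protocol as a term and Benjamini-Hochberg adjustment over all genes tested, at 0.05. DDC against D0 was the mean of the onset and progression coefficients minus steady state. Cell types were compared in 1 fit of all 5 classes with the library as a block. On simulated data, 200 genes were changed 4-fold up or down. For DDC against D0, 39% of them were recovered in BEC (14633 genes), 66.5% in LSEC (13526) and 81% in macrophages (11191). The share was 58.5% in neutrophils (6746) and 1% in fibroblasts (9811). Of the genes called, 6.02% were false in BEC, 2.21% in LSEC, 2.41% in macrophages, 4.10% in neutrophils and 33.3% in fibroblasts. The share in fibroblasts rests on very few calls, since only 1% of the changed genes were recovered there. Members too low for the fit were tested by exact permutation within protocol, and STOP is given with exact Poisson intervals, which cover counting error only. The genes named beside the 5 are, per comparison, up to 4 called list genes with the largest log2 fold change, and per member the 3 most alike genes with a mean of at least 5 CPM, predicted, mitochondrial, ribosomal and marker genes excluded. Alternatives were DESeq2 1.42.0, total counts as scaling, no filter on low counts, 1000 or 3000 UMIs, a looser and a stricter gate, no protocol term, each protocol alone and each library left out. Python 3.11.15 with scipy 1.17.1 was used for the rest.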

Additional observations from a re-analysis of the deposited data

Results flagged for a closer look

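In 5 of 32 gene, class and stage groups with 4 to 6 libraries, 1 library stood apart from the others by Dixon's criterion. It flags about 1 in 20 groups by chance where values are normally distributed, which was not checked for these CPM. Cxcr2 in LSEC at onset was 12.3 CPM in D3 B (30 UMIs of 138 cells), with the next library at 1.78 CPM. Cxcl2 in macrophages in progression was 2809 CPM in D9 A, with the next at 1254 CPM, and D9 A was also the library with the most Cxcl2 in droplets of 10 to 100 UMIs (1302 CPM). Cxcl3 in macrophages at onset was 12.3 CPM in D5 B (40 UMIs), with the next at 0.599 CPM. Cxcl1 in neutrophils in progression was 190 CPM in D19 B, with the next at 92.3 CPM. Cxcl3 in fibroblasts in progression was 19.4 CPM in D19 A (21 UMIs), with the next at 4.25 CPM. What sets these libraries apart was not tested.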

How the results depend on the processing

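Over 62 log2 differences of the 5 genes, 467 of 519 values under other settings and 622 of 681 with a library left out kept their direction and their side of the threshold. The rise of Cxcl2 in BEC kept both in all 9 other settings (4.38 to 4.72) and lost the call without D19 B or without D25 A (range with a library left out 4.26 to 4.87). D0 A, the sole steady-state library of BEC and fibroblasts, could not be left out of their comparison with DDC.

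Without a filter on low counts more genes were called throughout, 1707 in place of 304 for DDC against D0 in BEC (950 in LSEC, 1232 in macrophages, 411 in neutrophils, 36 in fibroblasts) and 296, 770, 537, 184 and 31 for progression against onset. Under it, the following passed the threshold: in BEC Cxcl3 (4.11) and Cxcl5 (3.24) against D0 and 1.80 and 2.05 against onset, in LSEC Cxcl1 (-1.25 against D0, 0.79 against onset), Cxcl2 (1.59) and Cxcl5 (3.83) against onset, in macrophages Cxcl1 (-1.55) and Cxcl2 (-1.62) against D0 and Cxcl1 (0.86) and Cxcl5 (2.70) against onset, and in neutrophils Cxcl1 (-1.17 against D0, 2.20 against onset). DESeq2 called LSEC Cxcl5 against onset (3.93), and 860, 580, 801, 110 and 2 genes for DDC against D0 in the 5 classes in the same order. Over all settings but the left-out libraries, this count ran from 293 to 1707 in BEC, 3 to 950 in LSEC, 152 to 1232 in macrophages and 1 to 411 in neutrophils. Protocol A alone gave calls for BEC Cxcl3 (4.97) and Cxcl5 (4.23), and protocol B alone for macrophage Cxcl1 (-2.34) and Cxcl2 (-2.69) against D0.

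Directions turned as follows, none of them with a call. Against D0, protocol A alone gave 0.74 for Cxcl2, 0.95 for Cxcl3 and -0.14 for Cxcl5 in macrophages, and protocol B alone -0.95 for Cxcl2 in LSEC and -0.47 for Cxcl2 and -0.75 for Cxcl3 in neutrophils. LSEC Cxcl2, at 0.04 as reported, was also -0.0204 with DESeq2, -0.46 with 3000 UMIs and -0.11 with no protocol term. No protocol term gave -0.55 for BEC Cxcr2, 1000 UMIs -0.28 for neutrophil Cxcl3 and a stricter gate 2.61 for macrophage Cxcl3. Against onset, protocol B alone gave -1.68 for Cxcr2 in LSEC, -0.47 for Cxcl2 and -1.70 for Cxcl3 in macrophages, and -0.68 for Cxcl2 and 0.0603 for Cxcr2 in neutrophils. DESeq2 gave -0.0266 for LSEC Cxcr2 and -0.0258 for neutrophil Cxcl2, and no protocol term 0.12 for fibroblast Cxcl5. Neutrophil Cxcl3 was 0.0227 without a filter, 0.28 with 3000 UMIs and 0.24 in protocol A. Between cell types, Cxcl1 in BEC minus fibroblasts was 0.11 with total counts, 0.0580 without a filter and 0.0595 without the leading marker, and Cxcl5 in macrophages minus neutrophils was -0.11 with DESeq2.

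With a library left out, the ranges that crossed 0 against D0 were -2.67 (without D0 A) to 0.88 (without D0 B) for macrophage Cxcl2, -2.56 to 2.08 for macrophage Cxcl3 (turned without D0 B), -0.64 to 2.51 for neutrophil Cxcl2 and -1.02 to 2.55 for neutrophil Cxcl3 (both turned without D0 A), -0.93 to 1.86 for LSEC Cxcl2 (turned without D0 A, D5 B, D9 A, D19 A or D25 B), -0.79 to 2.18 for BEC Cxcr2 (D3 B), -0.000414 to 5.30 for macrophage Cxcl5 (D5 B) and -1.29 to 4.53 for fibroblast Cxcl1 (D25 B). Against onset they were -9.90 to 1.73 for fibroblast Cxcl1, -6.84 to 1.98 for fibroblast Cxcl2 and -0.64 to 5.32 for BEC Cxcr2 (all 3 turned without D25 B), -0.21 to 1.02 for BEC Cxcl2 (D3 B or D25 B), -0.0328 to 1.24 for BEC Cxcl1 (D3 B), -0.34 to 1.98 for LSEC Cxcr2 (D3 A, D5 A or D5 B), -0.0764 to 0.97 for macrophage Cxcl2 (D9 A), -0.16 to 0.18 for neutrophil Cxcl2 (D0 A, D3 A, D9 A or D19 A) and -0.58 to 0.42 for neutrophil Cxcl3 (D5 A or D19 B). Between cell types they were -1.44 to 0.48 for Cxcl3 in LSEC minus fibroblasts (D19 A), -0.35 to 0.28 for Cxcl1 in BEC minus fibroblasts, -0.13 to 0.27 for Cxcr2 in BEC minus macrophages and -0.15 to 0.64 for Cxcl5 in macrophages minus neutrophils, the last 3 turning without any of several libraries. The cause was not tested. The count of called genes for DDC against D0 in BEC fell from 304 to 21 without D25 A and to 28 without D19 B.

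With at least 3000 UMIs, the ratios of STOP over D19 B in neutrophils were 0.808 for Cxcl2, 35.2 for Cxcl3 and 1.32 for Cxcr2, and the permutation p of macrophage Cxcr2 was 0.0278, the smallest that 36 arrangements allow. Without thinning, detection was 45.6%, 40.8% and 52.2% for Cxcl1, Cxcl2 and Cxcl5 in BEC, 43.2% for Cxcl1 in fibroblasts and 71.7% for Cxcr2 in neutrophils. Droplets of 10 to 500 UMIs, a window added after the data were seen, left Cxcl2 above them in 7 of 10 BEC and 1 of 13 LSEC libraries, Cxcl5 in 5 of 8 fibroblast and Cxcr2 in 5 of 13 LSEC libraries. No paired analysis was possible because the labels give the libraries no replicate numbers that link mice across stages; libraries were matched by isolation protocol, a term of the reported fits between stages, and the comparisons between cell types had the library as a block. The single steady-state library of BEC and of fibroblasts, and few Cxcl3 molecules, limit these comparisons.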
